A study of Homo sapiens with 16 samples.

Results

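The ATF4 amino acid response genes are 34 genes that carry out or control the cell's reply to a shortage of amino acids, chosen by name. These genes and the further lists were chosen with earlier results of these data known. A share above that of all genes is therefore no separate support. All 34 were present among the 59609 genes of each RNA table. They fall into 7 factors and regulators, 11 synthesis enzymes, 9 amino acid transporters and 7 other targets. They were followed in cells exposed to sorafenib, a multikinase inhibitor used against liver cancer, and in cells that overexpressed MT1G, a small metal-binding metallothionein.

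The samples were labelled as Huh7, a human liver cancer cell line, and all groups shared that label. RNA-seq of polyadenylated RNA covered 3 libraries of cells given sorafenib and 3 of cells given DMSO, the solvent. A second RNA experiment covered 3 libraries with MT1G overexpression and 3 with an empty vector. ATAC-seq, which marks open chromatin, covered 2 libraries after sorafenib and 2 after DMSO. The labels gave no dose, time, promoter for MT1G or number of clones. They did not say that replicates came from separate cultures, so p-values measure the spread between these libraries, which may be technical.

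ATF4 is a leucine zipper transcription factor of the integrated stress response. Kinases that sense amino acid shortage, misfolded protein, viral RNA or heme shortage phosphorylate eIF2 alpha, which slows most translation and favours that of ATF4. ATF4 pairs with C/EBP family partners on response elements near genes for amino acid synthesis, uptake and tRNA charging. It is controlled largely at translation, so its mRNA level is not its activity.

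Recovered read totals ran from 16549330 to 26781600 per library. MT1G had 140, 130 and 179 normalized read counts in the overexpression libraries and was at 0 in the 3 empty vector libraries. It had 189, 158 and 194 in the sorafenib libraries and was at 0 in the 3 DMSO libraries. Reads of MT1G could be split with its near-identical family members. The liver label went against the RNA: ALB, APOB, GPC3 and APOH were at 0 in all 12 libraries, and 1 of 12 hepatocyte markers, HNF4A, reached a mean of 10. HNF4A had 111, 88.8 and 152 in sorafenib libraries and 339, 333 and 350 in DMSO libraries. Of 7 stellate or fibroblast markers, 5 reached a mean of 10, with summed levels of 1039 to 1079 in sorafenib libraries and 2338 to 2591 in DMSO libraries. The lower sum was mostly LUM (405 to 483 with sorafenib and 1696 to 1872 with DMSO), while COL1A1 overlapped (421 to 476 with sorafenib and 432 to 495 with DMSO). COL3A1 went the other way, with 87.6 to 110 in sorafenib libraries and 45.0 to 65.6 in DMSO libraries. In the other experiment the summed level of these 7 was 2644 to 3475 with MT1G and 2159 to 2206 with empty vector. There PDGFRB went the other way, with 8.05 to 16.9 in MT1G libraries and 18.7 to 21.9 in empty vector libraries. Summed levels of 4 endothelial markers were 35.4 to 56.2 with sorafenib and 66.5 to 75.3 with DMSO. They were 39.5 to 48.7 with MT1G and 46.5 to 75.7 with empty vector. The lower sum with sorafenib was mostly CDH5 (12.7 to 29.9 with sorafenib and 48.2 to 54.6 with DMSO). VWF went the other way (19.4 to 28.8 with sorafenib and 13.5 to 17.5 with DMSO). PECAM1 was lower and KDR higher with sorafenib, each below 10 in every library. With MT1G, PECAM1 went against the sum (5.12 to 14.0, against 1.10 to 2.33 with empty vector). The 4 leukocyte markers summed to at most 8.14 in any library. The part of these marker differences in the results was not tested, and in bulk RNA fewer cells of a type and less RNA per cell cannot be told apart.

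Response elements for ATF4 with a C/EBP partner share the core TGATGNAA, where N is any base. It was searched on both strands from 250 bases before to 50 after the start in RefSeq promoters of build GRCh38.p14, which held 27 of the 34 genes. A match was present for 10 of the 27 (37.0%), against 4.46% of 27305 genes. The stricter form TGATGCAA was present for 6 of 27 (22.2%), against 1.08% of all genes. A gene with several promoters had more windows to match. Counted by promoter, TGATGNAA was present in 10 of 45 (22.2%), against 3.62% of 35116. The genes were chosen by name as ATF4 response genes, so an excess could follow from that choice and is no separate support. The bases before the start of ASNS, CEBPG and CHAC1 are printed because these 3 genes were higher with sorafenib and come from different roles. Capitals mark the match, read 5′ to 3′ along the gene.
ASNS (chr7:97872409-97872658, minus strand): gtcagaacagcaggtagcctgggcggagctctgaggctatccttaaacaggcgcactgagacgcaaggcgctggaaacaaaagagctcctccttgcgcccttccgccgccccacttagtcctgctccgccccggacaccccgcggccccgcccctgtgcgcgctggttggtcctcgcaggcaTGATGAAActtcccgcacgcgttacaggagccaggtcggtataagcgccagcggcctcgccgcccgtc
CEBPG (chr19:33373863-33374112, plus strand): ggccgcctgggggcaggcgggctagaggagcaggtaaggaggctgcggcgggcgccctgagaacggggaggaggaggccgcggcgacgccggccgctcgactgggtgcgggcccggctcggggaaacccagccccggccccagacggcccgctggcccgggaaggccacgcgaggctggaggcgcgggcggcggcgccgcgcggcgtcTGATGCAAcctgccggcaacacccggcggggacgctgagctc
CHAC1 (chr15:40953221-40953470, plus strand): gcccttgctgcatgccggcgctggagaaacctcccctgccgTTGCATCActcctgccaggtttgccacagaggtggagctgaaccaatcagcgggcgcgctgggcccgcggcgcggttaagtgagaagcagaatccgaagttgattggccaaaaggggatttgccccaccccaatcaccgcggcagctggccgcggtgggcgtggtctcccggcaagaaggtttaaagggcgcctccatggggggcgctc

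The matches began 68 bases before the start in ASNS and 42 before it in CEBPG on the gene's own strand, and 209 before it in CHAC1 on the other strand. The remaining matches are shown with up to 10 bases on each side, since 5 of the 10 lay in transporter genes.
SLC1A4 (chr2:64989382-64989409, plus strand): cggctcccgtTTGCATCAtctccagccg
SLC1A5 (chr19:46784894-46784921, minus strand): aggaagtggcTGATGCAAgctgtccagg
SLC3A2 (chr11:62881726-62881748, plus strand): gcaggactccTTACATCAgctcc
SLC38A1 (chr12:46266503-46266530, minus strand): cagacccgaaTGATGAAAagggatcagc
SLC7A1 (chr13:29595664-29595691, minus strand): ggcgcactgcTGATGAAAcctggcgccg
JDP2 (chr14:75427996-75428023, plus strand): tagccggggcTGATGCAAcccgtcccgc
FGF21 (chr19:48755460-48755487, plus strand): aacaccaggaTTGCATCAgggaggagga

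These matches read TGATGCAA in 6 genes, TGATGAAA in 3 and TGATGTAA in 1, on one strand or the other. By role, 2 of 6 factors, 1 of 7 enzymes, 5 of 8 transporters and 2 of 6 other targets in the promoter table held one. Among the 27 genes, a match was present in 6 of 10 that were higher with sorafenib, 2 of 8 that were lower, 1 of 8 that did not pass the test and the 1 that was not tested. By result with MT1G, matches were in 2 of 4 higher, 3 of 7 lower, 3 of 14 that did not pass and the 2 not tested. Such shares were not computed over all genes, so no link with the changes is read from them. A match describes letters in this window and is not a measured site.

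**Figure D1:**
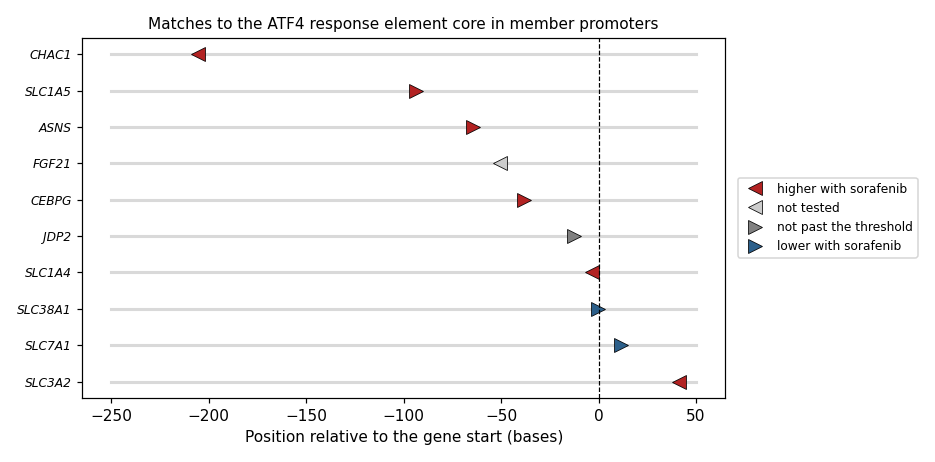
Position of each match to TGATGNAA in the 10 promoters that held one. The horizontal axis is the distance from the gene start in bases, arrowheads point right for the gene's own strand and left for the other, and colours give the result with sorafenib. The CHAC1 match lay farthest before the start and the SLC3A2 match farthest after it.

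The sorafenib comparison asked which of these genes differ after the drug. The response was split: ASNS, DDIT3, CHAC1, NUPR1, CEBPG, STC2, ATF4 and SLC3A2 were the higher genes with the largest changes, while DDIT4, SLC7A5, SLC38A1 and VLDLR fell. Of the 34 genes, 32 reached a mean of 10 normalized read counts over the 6 libraries and were tested. Of these, 13 were higher (40.6%, against 34.4% of all 14915 genes tested) and 10 were lower (31.2%, against 35.8%), which makes 23 past the threshold in either direction (71.9%, against 70.3%). The tests used limma on log2(normalized read count + 1), with p-values adjusted over all genes at a threshold of 0.05. The remaining 9 did not pass. The groups did not overlap in 22 of the 32 genes (68.8%, against 73% of all genes tested), and the median log2 change was 0.04, against -0.02 over all genes. All these shares lay near those of the whole table. The normalized totals were 17673300 to 17793100 in sorafenib libraries and 20316000 to 21317200 in DMSO libraries. Scaling to total reads instead, a choice made after the data were seen, moved the median of all genes to 0.21 and gave 19 members higher and 6 lower. Over all genes that scaling gave 6872 higher and 3496 lower, in place of 5137 and 5347. The 13 higher genes were higher under each of the 14 other settings, and of the 10 lower genes SLC7A1, SLC7A5, SLC38A1, SLC6A9, DDIT4 and VLDLR were lower under each. Without sorafenib library 2 (numbered by its place in the deposited table), 6 members were lower, and 4973 of all 14794 genes tested in that fit.

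**Figure D2:**
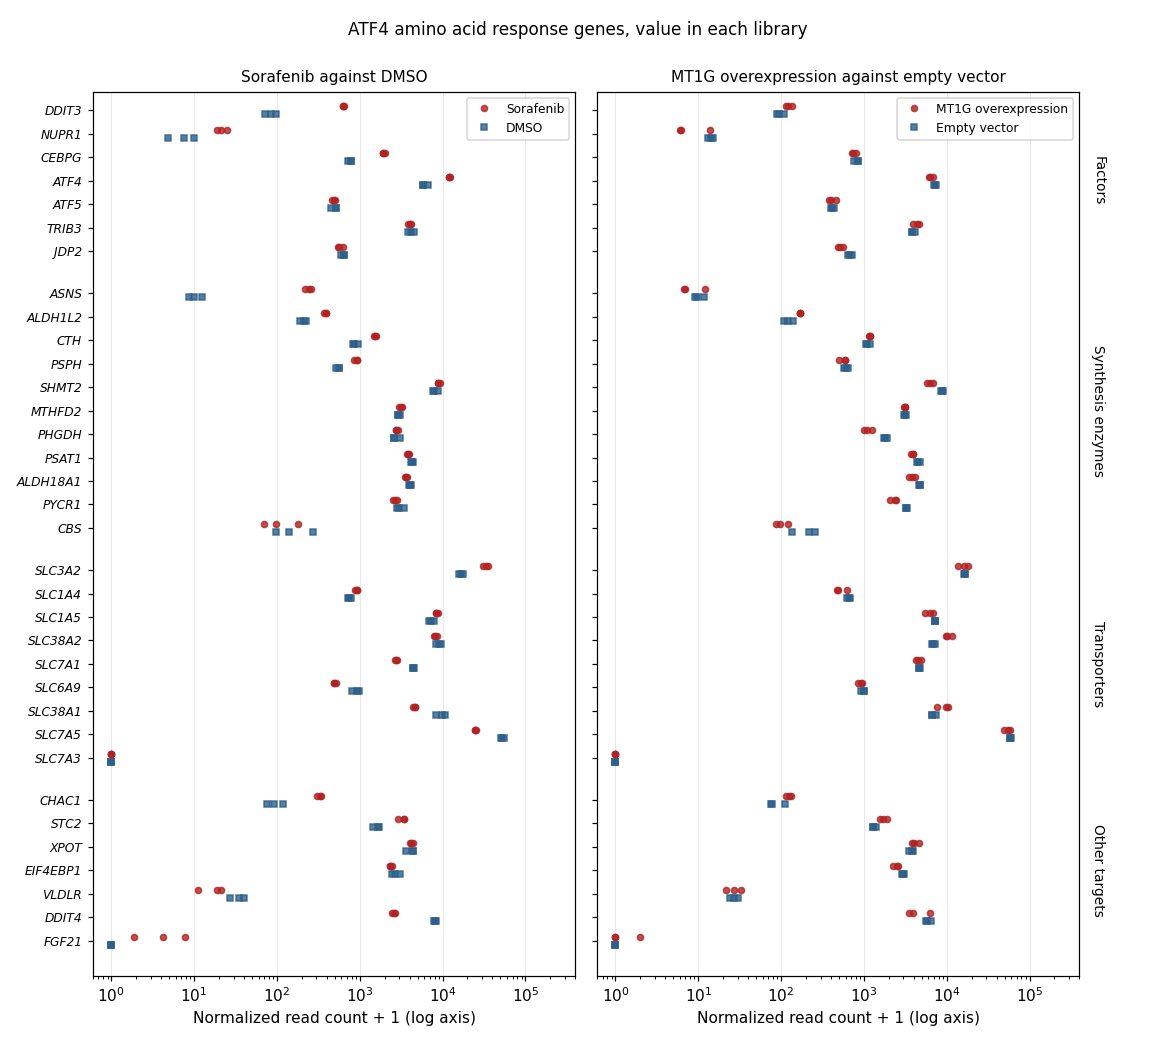
Normalized read count plus 1 of each gene in each library, on a log axis, for sorafenib against DMSO (left panel) and MT1G overexpression against empty vector (right panel). Circles are the treated libraries and squares their controls. The sorafenib libraries lie well above the DMSO libraries for ASNS, DDIT3 and CHAC1 and well below them for DDIT4, and SLC7A3 was at 0 throughout.

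Among the factors, 4 of 7 rose with sorafenib (57.1%, against 34.4% of all genes tested), 0 fell (against 35.8%) and 3 did not pass. Their median log2 change was 1.0. With scaling to total reads 6 were higher and 0 lower. ATF4 had 12062, 12419 and 11923 normalized read counts in sorafenib libraries and 5784, 5871 and 6638 in DMSO libraries. All sorafenib libraries lay above all DMSO libraries, a log2 change of 1.0 ± 0.06 (SE, n = 3 each, adjusted p = 5.95e-10). DDIT3 encodes CHOP, a stress factor that ATF4 induces. It had 634, 651 and 627 in sorafenib libraries and 95.6, 70.4 and 82.9 in DMSO libraries. The log2 change of DDIT3 was 2.94 ± 0.12 (SE, adjusted p = 2.65e-12) and its groups were far apart. The span of DDIT3 overlaps that of MARS1, and whether counting used strand is not given in the sources used here. MARS1 itself had 3875, 3720 and 3858 with sorafenib and 3440, 3085 and 3436 with DMSO. CEBPG, a C/EBP partner of ATF4, had 1897, 1927 and 2010 in sorafenib libraries and 774, 787 and 724 in DMSO libraries. Its log2 change was 1.35 ± 0.06 (SE, adjusted p = 2.51e-11). NUPR1, a small stress-induced nuclear protein, had 23.6, 19.9 and 18.2 in sorafenib libraries and 9.0, 3.86 and 6.55 in DMSO libraries. That is a log2 change of 1.58 ± 0.39 (SE, adjusted p = 0.00165) at low counts, and NUPR1 reached the minimum of 10 through the sorafenib group.

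ATF5, JDP2 and TRIB3 overlapped between groups. TRIB3, a pseudokinase that ATF4 induces and that holds ATF4 back, averaged 3973 ± 141 with sorafenib and 4170 ± 339 with DMSO (SD, n = 3 each). The 95% interval of its log2 change was -0.20 to 0.07. ATF5, a relative of ATF4, had an interval of -0.21 to 0.15, and JDP2, a leucine zipper repressor, one of -0.27 to 0.07. The ATF5 gene overlaps NUP62 and IL4I1, so its reads could be shared with theirs. With scaling to total reads ATF5 (log2 change 0.20, adjusted p = 0.0461) and TRIB3 (0.16, adjusted p = 0.0202) passed as higher.

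Among the 11 enzymes, 4 rose (36.4%, against 34.4% of all genes tested), 3 fell (27.3%, against 35.8%) and 4 did not pass. Their median log2 change was 0.08. With scaling to total reads 7 were higher and 0 lower. ASNS, which makes asparagine from aspartate and glutamine, had 220, 257 and 243 in sorafenib libraries and 9.0, 11.6 and 7.64 in DMSO libraries. The means were 240 ± 18.7 with sorafenib and 9.40 ± 2.00 with DMSO (SD, n = 3 each), a ratio of 25.6. On the log2 scale with its pseudocount of 1 the change was 4.55 ± 0.20 (SE, adjusted p = 1.14e-11). ASNS had the largest log2 change of the 32 genes tested, and it reached the minimum of 10 through the sorafenib group.

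The serine synthesis genes differed in direction. PSPH, the enzyme of its last step, had 863, 915 and 919 with sorafenib and 519, 558 and 553 with DMSO. The groups did not overlap and the log2 change was 0.73 ± 0.07 (SE, adjusted p = 1.81e-07). Its near copy PSPHP1 went the other way, with 155, 137 and 151 in sorafenib libraries and 188, 197 and 245 in DMSO libraries, and the groups of their sum did not overlap. PHGDH, the enzyme of the first step, averaged 2809 ± 105 with sorafenib and 2727 ± 258 with DMSO (SD), with an interval of -0.10 to 0.19. PHGDH passed as higher without DMSO library 3 (adjusted p = 0.0321) and with scaling to total reads (0.00110). PSAT1, between them, had 3734, 3872 and 3915 with sorafenib and 4353, 4154 and 4314 with DMSO. The fall of PSAT1 by 0.15 on the log2 scale (adjusted p = 0.0200) was lost without sorafenib library 1 (0.0879), sorafenib library 2 (0.0592) or DMSO library 1 (0.0818). It was also lost with TMM scaling (0.0540) and edgeR (0.0545), and its sign turned with scaling to total reads.

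Of the mitochondrial folate enzymes, ALDH1L2 had 371, 388 and 392 in sorafenib libraries and 220, 210 and 191 in DMSO libraries. That is a log2 change of 0.89 ± 0.10 (SE, adjusted p = 4.39e-07). SHMT2 (0.14, adjusted p = 0.0572) and MTHFD2 (0.08, adjusted p = 0.223) did not pass, and their groups overlapped. SHMT2 passed as higher without DMSO library 3 (adjusted p = 0.000115) and also with TMM scaling, DESeq2 and edgeR. It also passed with no minimum (0.0198) and with scaling to total reads (3.00e-05). MTHFD2 passed as higher with scaling to total reads (0.000324). The proline enzymes PYCR1 and ALDH18A1 fell by 0.21 (adjusted p = 0.0192) and 0.16 (adjusted p = 0.0146) on the log2 scale. Both changed sign with scaling to total reads. The PYCR1 call was lost without sorafenib library 2 (0.0541) or 3 (0.105), and that of ALDH18A1 without sorafenib library 2 (0.0741) or DMSO library 1 (0.0568). CTH and CBS link homocysteine to cysteine. CTH had 1484, 1520 and 1577 with sorafenib and 842, 824 and 944 with DMSO, a log2 change of 0.81 ± 0.07 (SE, adjusted p = 3.10e-08). CBS ranged from 68.0 to 178 with sorafenib and 97.1 to 274 with DMSO, too wide a spread to place a difference (interval -2.08 to 0.99).

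Among the transporters, 3 of 8 tested rose (37.5%, against 34.4% of all genes tested), 4 fell (50%, against 35.8%) and 1 did not pass. Their median log2 change was -0.41. SLC3A2 is the heavy chain that carries SLC7A5, the large neutral amino acid transporter, to the cell surface. The pair moved in opposite directions. SLC3A2 had 34912, 33089 and 31016 in sorafenib libraries and 16503, 15820 and 17826 in DMSO libraries, a log2 change of 0.98 ± 0.06 (SE, adjusted p = 9.17e-10). SLC7A5 had 24854, 24464 and 25112 in sorafenib libraries and 52422, 50183 and 55332 in DMSO libraries. It fell by 1.08 on the log2 scale (SE 0.06, adjusted p = 6.92e-11), and neither gene's groups overlapped.

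SLC38A1, a sodium-coupled carrier of glutamine and other neutral amino acids, had 4422, 4704 and 4684 with sorafenib and 9961, 10579 and 8278 with DMSO. It fell by 1.05 on the log2 scale (SE 0.08, adjusted p = 3.76e-09). Its relative SLC38A2, a carrier known to be induced by amino acid shortage, had overlapping groups (-0.13, adjusted p = 0.0669). SLC38A2 passed as lower without DMSO library 3 (adjusted p = 0.000757) and with no minimum (0.0352). SLC6A9, a glycine carrier, had 522, 493 and 491 with sorafenib and 919, 815 and 992 with DMSO, a fall by 0.85 (adjusted p = 1.26e-07). SLC7A1, a carrier of cationic amino acids, had 2665, 2846 and 2740 with sorafenib and 4575, 4393 and 4389 with DMSO, a fall by 0.69 (adjusted p = 1.49e-08). The neutral amino acid exchangers SLC1A4 and SLC1A5 rose by small amounts. SLC1A4 had 874, 924 and 937 with sorafenib and 718, 744 and 792 with DMSO (log2 change 0.28, adjusted p = 0.00226). SLC1A5 had 8750, 8432 and 8395 with sorafenib and 7203, 6783 and 7866 with DMSO (log2 change 0.23, adjusted p = 0.00334). SLC7A3, a further cationic carrier, was at 0 in all 12 libraries.

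Among the other targets, 2 of 6 tested rose (33.3%, against 34.4% of all genes tested), 3 fell (50%, against 35.8%) and 1 did not pass. With scaling to total reads 3 were higher and 2 lower. CHAC1, which breaks down glutathione, had 339, 330 and 301 in sorafenib libraries and 92.2, 74.2 and 118 in DMSO libraries. The groups did not overlap, with a log2 change of 1.78 ± 0.15 (SE, adjusted p = 1.76e-08). STC2, a secreted glycoprotein, had 3417, 3453 and 2905 with sorafenib and 1661, 1731 and 1430 with DMSO (log2 change 1.02 ± 0.08, adjusted p = 1.10e-08). DDIT4, a stress-induced brake on mTORC1 signalling, went the other way. It had 2649, 2451 and 2559 in sorafenib libraries and 7897, 8167 and 8430 in DMSO libraries, a fall by 1.68 on the log2 scale (SE 0.06, adjusted p = 4.63e-13). VLDLR, a lipoprotein receptor, had 10.1, 18.1 and 20.3 with sorafenib and 25.9, 39.5 and 33.8 with DMSO, a fall by 1.02 (SE 0.31, adjusted p = 0.00793).

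EIF4EBP1, a translation repressor that binds eIF4E, fell by 0.19 (adjusted p = 0.0310) although its groups overlapped. That call was lost without sorafenib library 2 (0.0964) or 3 (0.102) and without DMSO library 1 (0.0627) or 3 (0.0937). It was also lost with TMM scaling (0.0593), DESeq2 (0.0525) and edgeR (0.0618), and its sign turned with scaling to total reads. XPOT, which exports tRNA from the nucleus, had an interval of -0.10 to 0.19. With scaling to total reads XPOT passed as higher (log2 change 0.27, adjusted p = 0.00614). FGF21, a metabolic hormone, was below the minimum and was not tested. It had 6.75, 0.906 and 3.20 in sorafenib libraries and was at 0 in the 3 DMSO libraries. These are 12 reads against 0. The sorafenib mean was 3.43-fold above a floor of 3 reads over the DMSO libraries. That floor covers counting error of the DMSO group only, and the sorafenib reads were taken as counted, so it is not a lower bound.

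**Figure D3:**
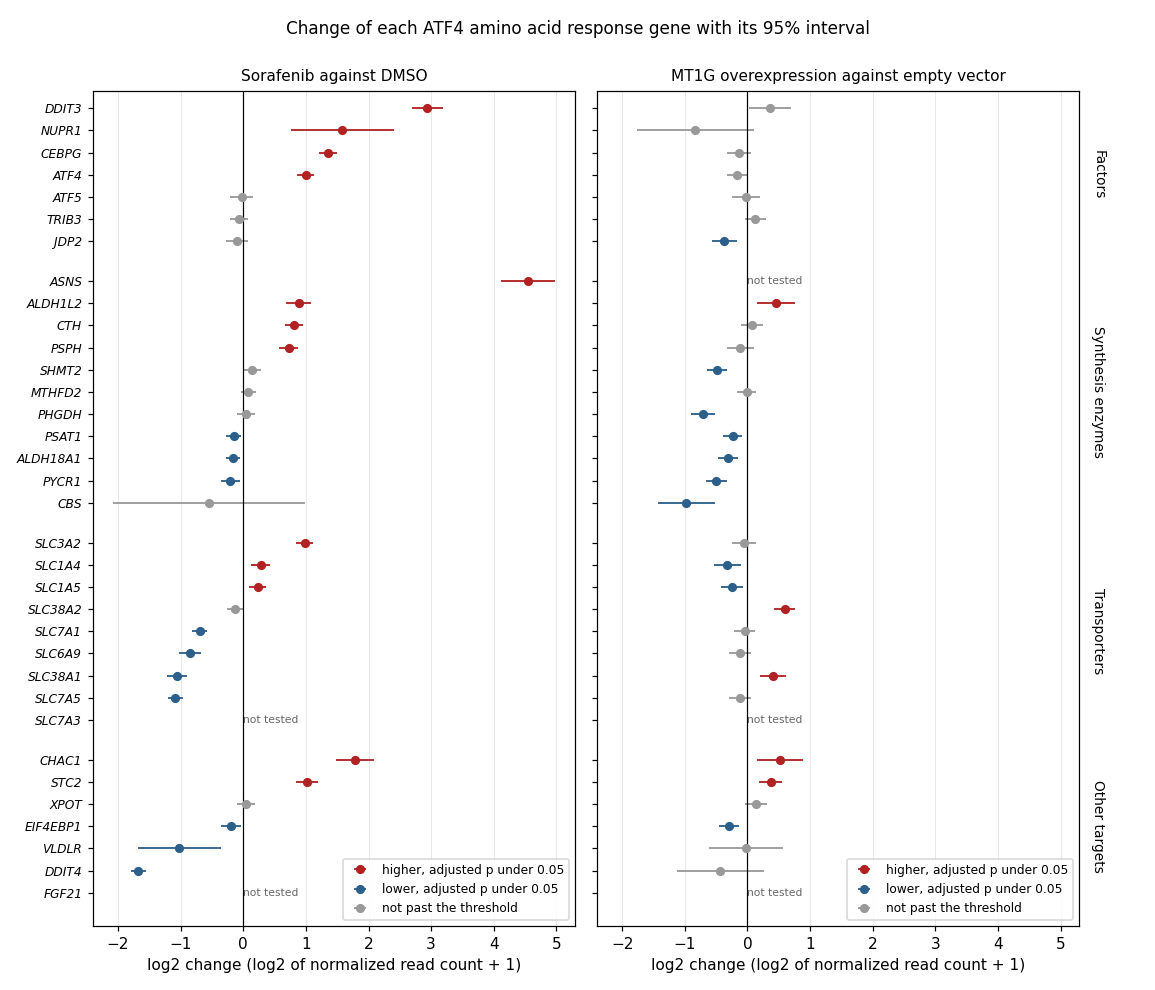
Log2 change of each gene with its 95% interval, for sorafenib against DMSO (left panel) and MT1G overexpression against empty vector (right panel). Red is higher, blue lower and grey not past an adjusted p of 0.05. Sorafenib changes ran from -1.68 for DDIT4 to 4.55 for ASNS, and MT1G changes from -0.97 for CBS to 0.59 for SLC38A2.

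Other genes of the pathway were described from 3 further lists, also chosen with earlier results of these data known. The 17 upstream genes were the eIF2 alpha kinases, eIF2, eIF2B and phosphatase subunits, and GCN1, DELE1 and OMA1, which relay stress signals to those kinases. Of these, 6 rose and 6 fell with sorafenib (35.3% each, against 34.4% and 35.8% of all genes tested) and 5 did not pass. PPP1R15A, the stress-induced subunit that directs eIF2 alpha dephosphorylation, had 20160, 20210 and 19257 with sorafenib and 1327, 1371 and 1456 with DMSO (log2 change 3.84, adjusted p = 1.95e-17). Its constitutive relative PPP1R15B rose by 0.68 (adjusted p = 3.37e-08). EIF2AK2, the kinase that senses double-stranded RNA, fell by 0.84 (adjusted p = 3.75e-07), and EIF2S3, a subunit of eIF2, by 0.42 (adjusted p = 6.69e-06). With scaling to total reads, 9 upstream genes were higher and 3 lower.

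Of 20 cytosolic aminoacyl tRNA synthetases, which charge tRNAs, 19 were tested. With sorafenib 6 rose (31.6%, against 34.4% of all genes tested), 11 fell (57.9%, against 35.8%) and 2 did not pass, a median of -0.19. With scaling to total reads 6 were higher and 2 lower, and the median turned to 0.03. YARS1 (log2 change 0.47, adjusted p = 1.65e-06) and GARS1 (0.45, adjusted p = 3.78e-06) rose, while IARS1 (-0.57, adjusted p = 1.17e-06) and FARSA (-0.39, adjusted p = 3.17e-05) fell. Of 12 other ATF4 targets, 7 rose (58.3%, against 34.4% of all genes tested), 3 fell (25%, against 35.8%) and 2 did not pass. Their median log2 change was 0.42. ATF3, a stress factor, had 5229, 5415 and 5124 with sorafenib and 298, 270 and 309 with DMSO (log2 change 4.17, adjusted p = 4.67e-17). SESN2, a leucine sensor, had 2549, 2541 and 2620 with sorafenib and 378, 346 and 404 with DMSO (log2 change 2.77, adjusted p = 1.44e-14). The cystine carrier SLC7A11 fell by 1.19 (adjusted p = 3.15e-09) and the angiogenic factor VEGFA by 0.53 (adjusted p = 1.57e-05).

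In the MT1G experiment PHGDH of serine synthesis, PYCR1 of proline synthesis and SHMT2 were lower, and the glutamine carrier SLC38A2 was higher. PSAT1 and ALDH18A1 also passed as lower and SLC38A1 as higher, but each of these calls was lost under some of the other settings. Of the 31 genes tested, 5 were higher (16.1%, against 11.5% of all 13914 genes tested), 10 were lower (32.3%, against 11.3%) and 16 did not pass. The 15 past the threshold made 48.4%, against 22.8% of all genes tested. The groups did not overlap in 17 of 31 genes (54.8%, against 39.4% of all genes tested). The median log2 change was -0.12, against a median over all genes of -6.6e-05. Over all genes 1604 were higher and 1575 lower, and scaling to total reads gave 1990 and 943. These counts changed when single libraries were left out. Without MT1G library 2, 2 members and 1100 of all genes were higher, and without vector library 2, 3 members and 1062 of all genes. Likewise 6 members were lower without vector library 1, 5 without vector library 2 and 5 without vector library 3. Of all genes, 1072, 824 and 764 were lower in those 3 fits, so the counts over all genes fell too. SLC38A2 and STC2 were higher, and PHGDH, SHMT2, PYCR1 and CBS lower, under each of the 14 other settings.

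None of the 7 factors rose with MT1G (0 of 7, against 11.5% of all genes tested) and 1 fell (14.3%, against 11.3%). ATF4 had 6912, 6138 and 6246 with MT1G and 6999, 7257 and 7389 with empty vector (log2 change -0.17, adjusted p = 0.124), and it passed without MT1G library 1 (0.0362). DDIT3 had 112, 120 and 136 with MT1G and 107, 92.2 and 87.5 with empty vector (log2 change 0.36, adjusted p = 0.115). In neither gene did the groups overlap, and neither difference passed. JDP2 had 566, 491 and 517 with MT1G and 720, 639 and 671 with empty vector, a fall by 0.37 (adjusted p = 0.00953) that was lost without vector library 1 (0.0605).

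Among the 10 enzymes tested with MT1G, 6 fell (60%, against 11.3% of all genes tested), 1 rose (10%, against 11.5%) and 3 did not pass. Their median log2 change was -0.27. PHGDH had 1266, 1000 and 1081 in MT1G libraries and 1798, 1749 and 1923 in empty vector libraries. The groups did not overlap, and it fell by 0.71 on the log2 scale (SE 0.09, adjusted p = 1.13e-05). SHMT2 had 6854, 5832 and 6344 with MT1G and 8842, 8621 and 9125 with empty vector, a fall by 0.49 (adjusted p = 0.000185). PYCR1 had 2379, 2077 and 2465 with MT1G and 3232, 3224 and 3284 with empty vector, a fall by 0.50 (adjusted p = 0.000188). ALDH18A1 fell by 0.31 (adjusted p = 0.00795), a call lost without vector library 2 (0.0550) or 3 (0.0506). PSAT1 fell by 0.23 (adjusted p = 0.0278), lost without vector library 1 (0.0879), 2 (0.174) or 3 (0.0833). ALDH1L2 had 167 in each MT1G library and 137, 108 and 120 with empty vector (log2 change 0.46, adjusted p = 0.0258). That rise was lost without MT1G library 2 (0.0579) or vector library 2 (0.144) or 3 (0.0829). PSPH did not pass, with 595, 597 and 496 with MT1G and 572, 604 and 643 with empty vector (log2 change -0.11, adjusted p = 0.453).

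CBS had 95.4, 86.1 and 120 with MT1G and 136, 218 and 256 with empty vector, a fall by 0.97 (adjusted p = 0.00515). Its near-identical copy CBSL had 55.7, 2.33 and 56.3 with MT1G and 2.19, 1.79 and 12.8 with empty vector. The sum of both was 151, 88.4 and 176 with MT1G and 138, 219 and 268 with empty vector, and the groups of the sum overlapped, so the CBS value is uncertain. ASNS had 5.96, 5.81 and 11 with MT1G and 8.77, 10.7 and 8.17 with empty vector, below the minimum, and was not tested.

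Of the 8 transporters tested with MT1G, 2 rose and 2 fell (25% each, against 11.5% and 11.3% of all genes tested) and 4 did not pass. SLC38A2 had 9855, 11573 and 10132 with MT1G and 7256, 6733 and 6883 with empty vector, a log2 change of 0.59 ± 0.08 (SE, adjusted p = 2.30e-05). SLC38A1 had 7578, 10290 and 9730 with MT1G and 7327, 6707 and 6597 with empty vector (log2 change 0.41, adjusted p = 0.00734). In neither gene did the groups overlap, and the SLC38A1 call was lost without MT1G library 2 (0.0505). SLC1A4 fell by 0.32 (adjusted p = 0.0329) and SLC1A5 by 0.25 (adjusted p = 0.0343). The SLC1A4 call was lost without MT1G library 2 (0.121) or 3 (0.0644) and without vector library 1 (0.0791), 2 (0.0734) or 3 (0.124). That of SLC1A5 was lost without MT1G library 2 (0.0944) and without vector library 1 (0.0953), 2 (0.123) or 3 (0.111). With scaling to total reads 0 transporters were lower. SLC3A2 ranged from 13653 to 17828 with MT1G and 15993 to 16579 with empty vector, and SLC7A5 from 49336 to 58047 with MT1G and 58027 to 59194 with empty vector. In both genes the groups overlapped.

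Among the other targets 2 of 6 rose with MT1G (33.3%, against 11.5% of all genes tested) and 1 fell (16.7%, against 11.3%). STC2 had 1682, 1550 and 1910 with MT1G and 1383, 1302 and 1278 with empty vector (log2 change 0.37, adjusted p = 0.00494). CHAC1 had 113, 124 and 132 with MT1G and 76.8, 74.3 and 110 with empty vector (log2 change 0.52, adjusted p = 0.0382). The CHAC1 call was lost without MT1G library 2 (0.105) or 3 (0.0789) and without vector library 1 (0.126) or 2 (0.167), and with DESeq2 and edgeR. EIF4EBP1 fell by 0.29 (adjusted p = 0.0115), lost without vector library 2 (0.0631) or 3 (0.0698). DDIT4 had 3905, 3475 and 6368 with MT1G and 6489, 5691 and 5765 with empty vector. MT1G library 3 lay among the empty vector libraries and the groups overlapped (log2 change -0.43, adjusted p = 0.317). Without that library DDIT4 fell by 0.70 (adjusted p = 6.55e-07).

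Of the upstream list 0 rose with MT1G (against 11.5% of all genes tested), 1 fell (5.88%, against 11.3%) and 16 did not pass. The 1 that fell was DELE1, which relays mitochondrial stress to an eIF2 alpha kinase (-0.33, adjusted p = 0.00554). Of the 19 synthetases tested 2 rose (against 11.5% of all genes tested), 3 fell (15.8%, against 11.3%) and 14 did not pass. The 5 past the threshold in either direction made 26.3%, near the 22.8% of all genes tested. RARS1 (0.36, adjusted p = 0.00708) and NARS1 (0.24, adjusted p = 0.0419) rose, and QARS1 (-0.35, adjusted p = 0.00293) and AARS1 (-0.31, adjusted p = 0.00757) fell. Of the 12 other ATF4 targets 3 rose (25%, against 11.5%), 2 fell (16.7%, against 11.3%) and 7 did not pass. SLC7A11 had 1828, 2376 and 2428 with MT1G and 1584, 1396 and 1261 with empty vector (log2 change 0.64, adjusted p = 0.000837). CEBPB, a C/EBP factor, rose by 0.30 (adjusted p = 0.0174). PCK2, the mitochondrial phosphoenolpyruvate carboxykinase, fell by 0.49 (adjusted p = 0.00244) and SQSTM1, an autophagy receptor, by 0.24 (adjusted p = 0.0312). The SQSTM1 call was lost with scaling to total reads (0.0604).

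The 2 RNA experiments shared no libraries and were normalized separately, so no test was made between them. ALDH1L2, CHAC1 and STC2 were higher in both, and PSAT1, PYCR1, ALDH18A1 and EIF4EBP1 were lower in both. Of these, only STC2 held in both experiments under each of the 14 other settings. With sorafenib each of the lower calls was lost without at least 1 library and changed sign with scaling to total reads. SLC1A4 and SLC1A5 were higher with sorafenib and lower with MT1G, and SLC38A1 was lower with sorafenib and higher with MT1G. The MT1G calls of SLC1A4, SLC1A5 and SLC38A1 were each lost under some of those settings. The factors ATF4, DDIT3, CEBPG and NUPR1 with PSPH, CTH and SLC3A2 were the 7 genes that were higher with sorafenib and did not pass with MT1G. SLC7A1, SLC7A5, SLC6A9, DDIT4 and VLDLR were the 5 that were lower with sorafenib and did not pass with MT1G. JDP2, PHGDH, SHMT2 and CBS passed with MT1G alone as lower, and SLC38A2 as higher, with the CBS value uncertain because of its copy CBSL. Whether any of these changes differed between the experiments was not tested.

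**Figure D4:**
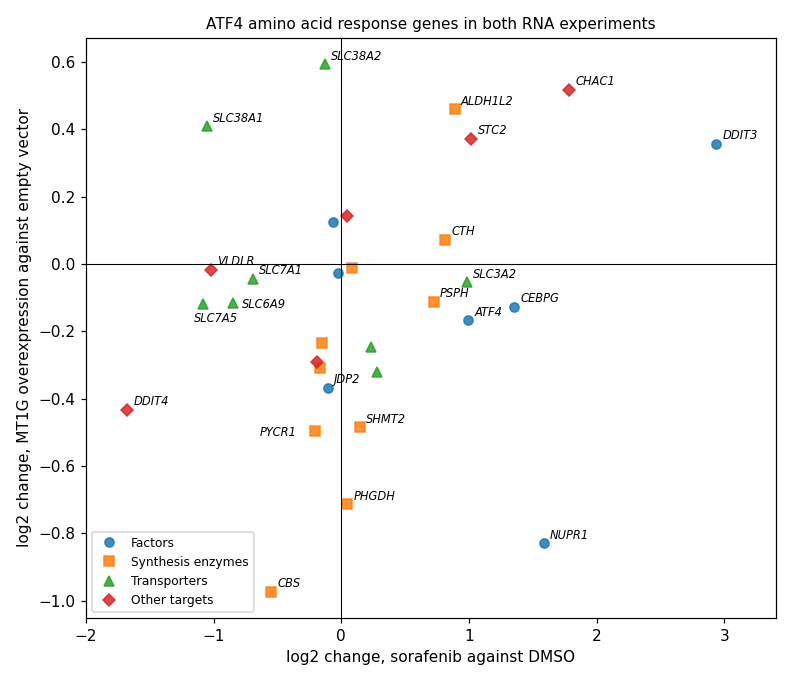
Log2 change with sorafenib against DMSO (horizontal) and with MT1G overexpression against empty vector (vertical) for the 31 genes tested in both experiments, with shapes and colours for roles. The axes have different ranges. ALDH1L2, CHAC1 and STC2 lie in the upper right, SLC38A1 in the upper left and SLC1A4 and SLC1A5 in the lower right.

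ATAC-seq asked whether chromatin at these genes was open with and without sorafenib. The deposited peak lists, 1 per library, held 139304 and 135681 peaks after sorafenib and 131245 and 156770 after DMSO. A peak lay within 1 kb of a gene start in all 4 libraries for 25 of the 27 genes in the promoter table (92.6%). The share was 91.3% of the 10374 genes tested for RNA in the sorafenib experiment that were in that table, and 51.5% of all 27305 genes. The exceptions, CBS and FGF21, had no such peak in any library. ASNS, despite its low RNA with DMSO, had a peak at its start in all 4 libraries. Its fold enrichment at the summit, a value the authors' peak caller gave, was 21.8 and 18.7 after sorafenib and 17.9 and 22.4 after DMSO. The ASNS peak stood above 97.5% to 99.4% of the peaks of its own list. CHAC1 had 14.3 and 13.4 after sorafenib and 13.6 and 16.2 after DMSO. For SLC7A5 the values were 3.43 and 2.86 after sorafenib and 5.47 and 8.20 after DMSO, and for JDP2 they were 5.74 and 5.31 after sorafenib and 9.60 and 11.2 after DMSO. In SLC7A5 and JDP2 both folds after sorafenib were the lower ones, and the same held in ATF4, DDIT3, STC2, ATF5, MTHFD2 and SLC7A1. In PSAT1 and TRIB3 both folds after sorafenib were the higher ones. By share of peaks of the own list below, both sorafenib values stayed lower only in SLC7A5, JDP2 and ATF5. In STC2 the shares were 63.6% and 63.9% after sorafenib and 63.5% and 58.7% after DMSO. SLC7A1 had 65.6% and 68.1% after sorafenib and 61.4% and 63.6% after DMSO. The shares overlapped in ATF4, DDIT3 and MTHFD2. The summit folds describe a peak within its list and are not scaled between libraries. No difference between sorafenib and DMSO was tested or read from folds or shares.

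Within each gene and 2 kb on either side, the 34 genes held 149 regions that were a peak in at least 1 library, 77 of them in all 4 (51.7%, against 34.2% of regions over the genome). A region was present in both sorafenib libraries and neither DMSO library 10 times, in 8 genes. The reverse, present in both DMSO libraries and neither sorafenib library, occurred 7 times, in 6 genes. Over the genome, 6.40% of 220925 regions were of the first kind and 12.0% of the second. The genome shares include regions far from any gene and no share over other genes was computed, so they are not like for like. SLC7A5, which fell in RNA, held 3 sorafenib-only and 2 DMSO-only regions among 18. CEBPG, which rose, held 1 of each among 3. No count test can be made on peak lists, and 22 genes held neither kind of region.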

How the data were processed

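RNA was measured in 12 libraries and open chromatin in 4, grouped by the sample titles. The submitters' processing notes name hg38 and, with no role or order, MACS2 2.2.7.1, Bowtie2 2.4.1, SAMtools, Picard, featureCounts 1.6.1, HISAT2, cutadapt and DESeq2. The deposited RNA signal values are the authors' normalized read counts per gene, with no correction for length, so levels are not compared between genes. Multiplied by 1 factor per library, 100% of them were whole reads within a tolerance of 0.001. The columns name group and number only, and all were used. The authors' comparison tables hold log2 fold changes, a test score (statistic) and p-values per gene, which are not reported here. In the deposited peak lists the score, the ratio (summit fold enrichment) and the -log10 p and q come from the authors' peak caller, 1 list per library.

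Genes that averaged 10 or more over 6 libraries were tested with limma 3.58.1 (R 4.3.3; trend, robust, two-sided) on log2(normalized read count + 1), so fold changes of low genes are understated. P-values were adjusted by Benjamini and Hochberg over all genes. Code was tested on simulated data with 200 changed genes. On the recovered reads, edgeR 4.0.16 called 5367 genes higher and 5076 lower with sorafenib and 1537 and 1320 with MT1G, and DESeq2 1.42.0 called 5025 and 4906 with sorafenib and 1538 and 1468 with MT1G. The other settings were TMM scaling, scaling to total reads, no minimum, pseudocounts of 0.5 and 5, the replicate number as a block, and leaving out each library. All 34 members are described, by role. From the other lists up to 2 genes a direction are named, those of the smallest adjusted p. The members and lists were chosen with earlier results of these data known. Peaks were joined to genes with an overlap of at least 1 bp, and promoters are from RefSeq (GRCh38.p14).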

Additional observations from a re-analysis of the deposited data

How the results depend on the processing

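The 14 other settings per RNA experiment left 13 of 13 higher and 6 of 10 lower members with sorafenib as reported, and 2 of 5 higher and 4 of 10 lower members with MT1G. Scaling to total reads, chosen after the data were seen, gave 6 lower members and 3496 lower genes in all with sorafenib, and 943 lower genes with MT1G. It turned the sign with sorafenib of ATF5 (0.20), JDP2 (0.12), TRIB3 (0.16), PSAT1 (0.071), PYCR1 (0.019), ALDH18A1 (0.061), SLC38A2 (0.094) and EIF4EBP1 (0.033), on the log2 scale. Of these, ATF5 (adjusted p = 0.0461) and TRIB3 (0.0202) then passed as higher. PHGDH (0.00110), SHMT2 (3.00e-05), MTHFD2 (0.000324) and XPOT (0.00614) kept their sign and passed as higher too. With MT1G it turned ATF5 (0.041), MTHFD2 (0.055), SLC3A2 (0.013), SLC7A1 (0.023) and VLDLR (0.048). ATF5 also turned with sorafenib under TMM scaling (0.0063) and edgeR (0.0072). The cause was not tested.

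Leaving out 1 library at a time gave 6 to 10 lower members with sorafenib, and 4973 to 5393 lower genes in all. In those fits ATF5 ran from -0.095 to 0.013 and XPOT from -0.041 to 0.083. With MT1G, leaving out 1 library gave 2 to 5 higher and 5 to 11 lower members. Over all genes it gave 1007 to 1818 higher and 764 to 2013 lower with MT1G. There ATF5 ran from -0.10 to 0.033, MTHFD2 from -0.040 to 0.018, SLC3A2 from -0.14 to 0.049, SLC7A1 from -0.10 to 0.0024 and VLDLR from -0.15 to 0.13. With the replicate block, 13 and 10 members were higher and lower with sorafenib and 5 and 10 with MT1G. It lost PSAT1 (adjusted p = 0.0540) and gained DDIT4 (adjusted p = 0.000207) with MT1G, and changed no other member's call. Each gene's group mean was subtracted and the deviations of same-numbered treated and control libraries were correlated. These correlations were -0.03, 0.03 and -0.06 with sorafenib and -0.14, 0.04 and -0.06 with MT1G. The numbers were therefore not taken as pairs.

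The stricter motif TGATGCAA was present in 6 promoters, against 10 for TGATGNAA. Members with a peak at the start numbered 23 in the promoter window, and 25 at a -log10 q of at least 5 or without any 1 library. ASNS with MT1G, FGF21 and SLC7A3 were too low in reads to test.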
